A study of Mus musculus with 12 samples.

Results

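The ephrins, semaphorins, Slits and netrins with their receptors were examined in cultured mouse neural stem cells (NSCs). Members were all genes of the count table whose symbol names an Eph receptor (Epha or Ephb), an ephrin (Efna or Efnb), a semaphorin of classes 3 to 7, a plexin, a neuropilin, a Slit, a Robo, a netrin, an Unc5 receptor or Dcc. This rule found 68 of the 17365 genes in the table, and it used no measured value. Of these, 58 passed the filter on low counts and were tested. The remaining 10 members, Efna5, Epha1, Epha8, Robo3, Robo4, Sema3g, Sema4f, Slit2, Slit3 and Unc5d, had between 3 and 62 counts summed over all libraries and are not described further.

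These genes encode the contact and diffusible cues that steer axons and migrating cells. Ephrins are membrane-bound ligands of the Eph receptor tyrosine kinases, and both partners can signal into the cell that carries them. Semaphorins signal through plexins, and most secreted class 3 semaphorins need a neuropilin as co-receptor. Slits bind Robo receptors, and netrins bind Dcc and the Unc5 receptors. In the subventricular zone (SVZ) ephrins and Slits are known for their effects on neuroblast migration and on the division of progenitors.

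NSCs came from the SVZ of wild-type mice aged 6 to 8 weeks. The ANS4 line was from strain MF1 and the BL6 line from strain C57BL/6, so that with 1 line per strain, line and strain cannot be told apart. Cells were expanded on laminin in EGF and FGF2 and then kept for 3 days in EGF/FGF, in BMP4 alone (BMP, the dormant quiescent cells or d-qNSCs) or in BMP4 with FGF2 (BMP/FGF, the primed quiescent cells or p-qNSCs), each factor at 10 ng/ml. Each line gave 2 libraries per condition, 12 in all. They are described by the study as biological replicates, but no source says whether they came from separate animals, and p-values measure the spread between these libraries. Values below are CPM, counts divided by the library total and scaled to a common depth, in the order ANS4 replicate 1, ANS4 replicate 2, BL6 replicate 1 and BL6 replicate 2.

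Totals lay between 18069052 and 19451818 counts, so 1 count was worth 0.0514 to 0.0553 CPM. The summed level of 12 NSC and astrocyte markers was 7806 to 8508 CPM in EGF/FGF, 12362 to 14008 under BMP and 15912 to 16064 in BMP/FGF, and none of these markers was at the floor of 3 counts in any condition. The NSC and astrocyte markers did not move together. Nes held 9645 to 12011 counts per library in EGF/FGF, 2142 to 2549 under BMP and 2076 to 2134 in BMP/FGF. Fabp7 (42297 to 50232, 5316 to 12052 and 22176 to 28365) and Hes5 (145 to 246, 49 to 98 and 115 to 134) also fell. The other markers of that list were higher in every quiescent library than in every EGF/FGF library. The 10 proliferation markers summed to 2729 to 3251 CPM in EGF/FGF, 456 to 685 under BMP and 318 to 340 in BMP/FGF. All 18 neuroblast and neuron markers were in the table. Their summed level was 1037 to 1129 CPM in EGF/FGF, 1743 to 2928 under BMP and 1189 to 1304 in BMP/FGF. In EGF/FGF most of it came from Map2 (10416 to 11100 counts per library) and Stmn1 (7684 to 9023, against 4055 to 7496 under BMP). Dcx held 12 to 42 counts in EGF/FGF, 3070 to 7648 under BMP and 882 to 981 in BMP/FGF. Dlx5 held 0 to 1, 147 to 423 and 17 to 34, whereas Gad2 held 375 to 680, 265 to 527 and 155 to 189. In bulk RNA, fewer cells of a type and less RNA per cell cannot be told apart, and the part of these markers in the results below was not tested. Microglia markers (6 of 12 in the table) and endothelial and mural markers (10 of 12) summed to at most 82.5 and 88.6 CPM in any library. Ependymal markers (9 of 10) summed to 73.9 to 87.2 CPM in EGF/FGF, 250.4 to 296 under BMP and 224 to 242 in BMP/FGF, and the oligodendrocyte lineage markers (12 of 12) to 1553 to 1693, 968 to 1641 and 1067 to 1162 CPM.

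The 6 members that differed between both quiescent states at FDR under 0.05 by more than 1 on the log2 scale were Plxna4, Epha3, Epha4, Unc5c and Sema3e, lower in BMP/FGF, and Ntn5, higher in BMP/FGF. Their genes lie, on GRCm38, at chr6:32144268-32588192 (Plxna4, minus strand), chr16:63543534-63864175 (Epha3, minus), chr1:77367185-77515088 (Epha4, minus), chr3:141465216-141834924 (Unc5c, plus), chr5:14025276-14256689 (Sema3e, plus) and chr7:45684022-45694556 (Ntn5, plus). RefSeq promoters of the same build were matched for 58 of the 68 members and for 5 of these 6, Plxna4 being the one without an entry. The 250 bases before the RefSeq start are shown for those whose window lies outside the gene's own exons, because these members moved between the states that share BMP4 and differ in FGF2. They are written 5′ to 3′ on the gene's strand:
Epha3 (chr16:63864176-63864425): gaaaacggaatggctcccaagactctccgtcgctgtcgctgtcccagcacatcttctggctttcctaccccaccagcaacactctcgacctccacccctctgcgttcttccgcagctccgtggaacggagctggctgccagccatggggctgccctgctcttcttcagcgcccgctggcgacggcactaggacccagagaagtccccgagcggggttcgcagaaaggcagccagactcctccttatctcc
Epha4 (chr1:77515089-77515338): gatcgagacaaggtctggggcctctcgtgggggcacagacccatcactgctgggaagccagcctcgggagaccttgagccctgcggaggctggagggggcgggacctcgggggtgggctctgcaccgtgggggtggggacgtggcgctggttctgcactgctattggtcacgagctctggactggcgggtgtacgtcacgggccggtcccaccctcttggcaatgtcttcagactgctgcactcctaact
Sema3e (chr5:14025026-14025275): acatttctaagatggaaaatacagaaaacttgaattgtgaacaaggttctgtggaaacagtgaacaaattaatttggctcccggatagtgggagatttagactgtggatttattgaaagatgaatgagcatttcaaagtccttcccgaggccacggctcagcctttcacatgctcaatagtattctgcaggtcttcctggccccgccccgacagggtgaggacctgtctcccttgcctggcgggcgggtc
Ntn5 (chr7:45683772-45684021): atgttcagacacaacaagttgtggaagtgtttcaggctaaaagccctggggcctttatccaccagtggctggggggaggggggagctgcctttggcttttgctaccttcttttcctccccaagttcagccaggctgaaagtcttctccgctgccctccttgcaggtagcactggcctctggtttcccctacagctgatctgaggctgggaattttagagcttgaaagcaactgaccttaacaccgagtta

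The motifs searched, on both strands, were 3, none of which lies within another, though a site of the first can share letters with one of the second: GGCGCC, a GC-rich element bound by BMP-responsive Smads, CCGGAA, the core of ETS sites, and CACGTG, an E-box. None of these letters is in the 4 windows shown, so no base is capitalised. The window of Unc5c, which lies in an exon of the gene in GENCODE and is not printed, holds GGCGCC. Over 32851 RefSeq promoter windows of the same length, GGCGCC was in 9.59%, CCGGAA in 12% and CACGTG in 6.02%. The windows of Epha3, Epha4 and Unc5c held 62.8%, 66.0% and 71.2% G or C, those of Ntn5 and Sema3e 52.8% and 48.0%, and the median over all promoters was 52.4%. Of the Epha4 window, 59 bases are exon of the noncoding gene Gm28386.

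Both quiescent states were set against proliferating cells and against each other in 1 model of all 12 libraries with condition and line as terms (edgeR's quasi-likelihood F-test, two-sided, FDR by Benjamini-Hochberg over the 13312 genes tested). In BMP against EGF/FGF, 36 of 58 members rose and 15 fell at FDR under 0.05, where 79.6% of all genes tested passed (40.8% higher and 38.8% lower). The members that rose by more than 1.5 on the log2 scale were 16 and those that fell by as much were 3, where 17.8% of all genes passed (10.9% higher and 6.95% lower). The median log2 fold change was 0.52 over the tested members and 0.02 over all genes tested. The share of members called was near that of all genes, whereas higher members outnumbered lower ones.

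In BMP/FGF against EGF/FGF, 28 members rose and 20 fell, where 78.9% of all genes tested passed (40.9% higher and 38% lower), and the median was 0.08 against 0.02 over all genes. Past 1.5, 12 rose and 2 fell, where 16.7% of all genes passed (10.6% higher and 6.08% lower). Between the quiescent states 7 members were higher and 25 lower in BMP/FGF than in BMP, where 41.4% of all genes passed (20.1% higher and 21.3% lower). The median there was −0.22 against −0.0035 over all genes. Only Ntn5 and Plxna4 passed 1.5, where 1.59% of all genes did (0.901% higher and 0.684% lower). The comparisons share libraries, BMP being part of the first and the third, and their counts are given side by side only. Counts per class below stand beside the same shares of all genes.

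**Figure D1:**
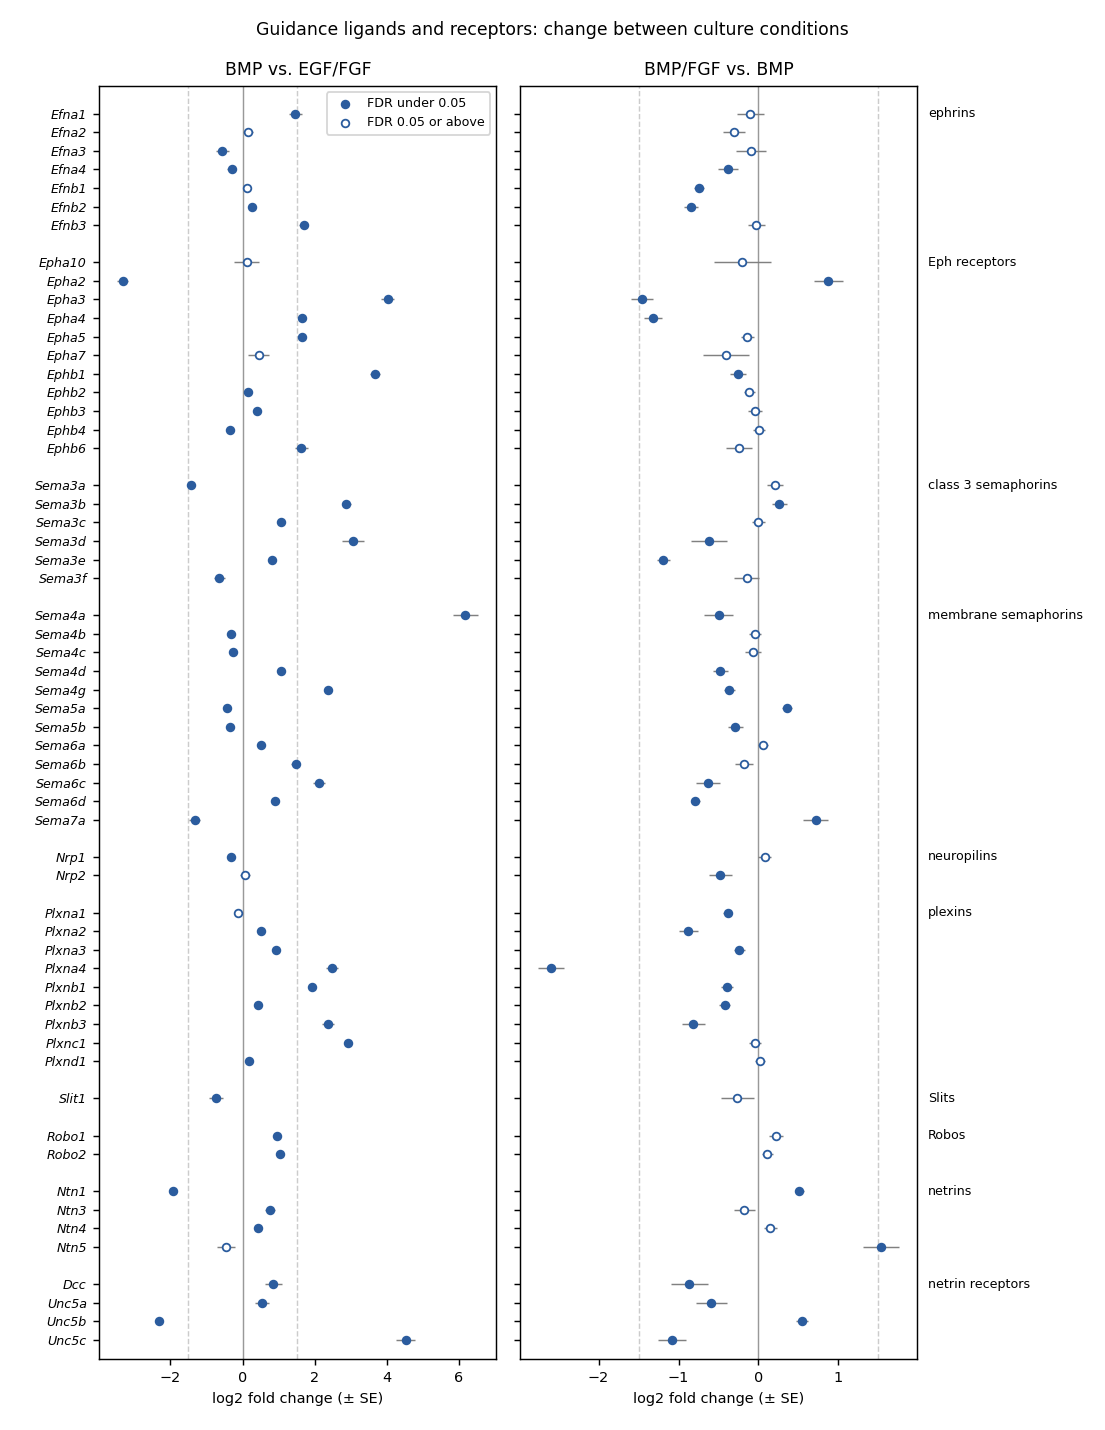
Log2 fold change (horizontal axes, ± SE) of the 58 tested members, one row per gene, grouped by class, for BMP against EGF/FGF (left) and BMP/FGF against BMP (right). Filled points have FDR under 0.05, open points do not, and dashed lines stand at 1.5 and −1.5. Most filled points lie right of 0 on the left and left of 0 on the right, and Epha2, Unc5b and Ntn1 are among those on the opposite side in both panels.

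Ephrins are the ligands of the Eph receptors. Of 7 tested, 3 rose and 2 fell with BMP, and 3 were lower and none higher in BMP/FGF than in BMP. Efnb3, a transmembrane ligand of EphB receptors, measured 4.91, 3.96, 5.85 and 3.86 CPM in EGF/FGF, 16.2, 15.5, 14.6 and 14.8 in BMP and 16.1, 13.9, 13.9 and 14.3 in BMP/FGF. Every quiescent library was above every EGF/FGF library, and the log2 fold changes were 1.70 ± 0.12 (SE; FDR = 3.811e-10) with BMP and 1.67 ± 0.12 (FDR = 5.310e-10) with BMP/FGF. Between the quiescent states the libraries overlapped (−0.03 ± 0.11, FDR = 0.871). Efnb1, the ephrin with the most RNA per kb, measured 50.0, 53.6, 55.8 and 51.5 CPM in EGF/FGF, 56.8, 57.7, 56.8 and 63.2 in BMP and 33.5, 36.6, 31.9 and 33.8 in BMP/FGF. All 4 BMP/FGF libraries were below all others, with log2 differences of −0.74 ± 0.06 from BMP (FDR = 1.23e-07) and −0.61 ± 0.07 from EGF/FGF (FDR = 1.16e-07), while BMP against EGF/FGF did not pass (0.13 ± 0.06, FDR = 0.0598). Efnb2, the third B-type ligand, followed with 34.3 to 44.8, 37.97 to 58.5 and 25.5 to 25.96 CPM in the 3 conditions (−0.84 ± 0.09, FDR = 6.73e-07 for BMP/FGF against BMP).

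Of the 11 Eph receptors tested, 7 rose and 2 fell with BMP, 6 of these 9 by more than 1.5, and in BMP/FGF against BMP 1 was higher and 3 lower. Epha3, a receptor of A-type ephrins, measured 0.879, 0.7197, 0.418 and 0.7299 CPM in EGF/FGF, 9.07, 10.96, 13.7 and 12.2 in BMP and 3.43, 4.18, 4.18 and 4.36 in BMP/FGF. The 3 conditions did not overlap, with BMP highest and EGF/FGF lowest. It rose 16.3-fold with BMP (log2 4.03 ± 0.18, FDR = 7.58e-13) and 5.92-fold with BMP/FGF (2.57 ± 0.20, FDR = 2.02e-09), and lay 2.75-fold lower in BMP/FGF than in BMP (−1.46 ± 0.14, FDR = 2.89e-07).

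Epha4, which binds ephrins of both types, measured 8.48, 7.61, 7.93 and 7.09 CPM in EGF/FGF, 19.9, 20.4, 31.4 and 28.6 in BMP and 8.14, 9.798, 10.5 and 10.1 in BMP/FGF. The BMP libraries stood above all others, with both BL6 libraries above both ANS4 ones, whereas BMP/FGF and EGF/FGF overlapped. The log2 fold changes were 1.65 ± 0.12 with BMP (FDR = 3.599e-10) and −1.32 ± 0.11 for BMP/FGF against BMP (FDR = 1.10e-07). Against EGF/FGF, BMP/FGF differed by 0.33 ± 0.12 (FDR = 0.0226), a call that was lost in 4 of 22 alternatives.

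Ephb1, Epha5 and Ephb6 were high in both quiescent states. Ephb1 measured 2.22, 2.62, 1.67 and 1.67 CPM in EGF/FGF, 24.5, 24.2, 27.7 and 29.4 in BMP and 19.9, 18.8, 22.7 and 24.3 in BMP/FGF, which is 12.7-fold (3.66 ± 0.13, FDR = 4.42e-14) and 10.6-fold (3.40 ± 0.13, FDR = 1.34e-13) above EGF/FGF. The quiescent libraries overlapped each other, and the difference of −0.26 ± 0.10 (FDR = 0.0454) lost its call in 14 of 22 alternatives. Epha5, a receptor abundant in forebrain, measured 55.95, 51.7, 42.7 and 46.3 CPM in EGF/FGF, 160.3, 149.9, 176 and 141 in BMP and 135, 139, 136 and 142 in BMP/FGF. All quiescent libraries lay above all EGF/FGF libraries (1.66 ± 0.08, FDR = 2.55e-12 with BMP and 1.52 ± 0.08, FDR = 8.68e-12 with BMP/FGF), and BMP and BMP/FGF overlapped. Ephb6, whose kinase domain lacks catalytic activity, measured 1.34, 2.47, 1.83 and 1.51 CPM in EGF/FGF, 4.95, 6.03, 5.93 and 5.64 in BMP and 4.55, 4.23, 4.02 and 5.67 in BMP/FGF (1.63 ± 0.18, FDR = 1.87e-07 with BMP and 1.39 ± 0.19, FDR = 2.04e-06 with BMP/FGF), again with no overlap with EGF/FGF.

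Epha2, a receptor known from dividing epithelial and tumour cells, went the other way. It measured 23.4, 25.96, 25.5 and 24.8 CPM in EGF/FGF, 2.75, 3.21, 1.76 and 2.42 in BMP and 3.64, 4.02, 4.89 and 5.56 in BMP/FGF, with no overlap between conditions. It fell 9.95-fold with BMP (log2 −3.31 ± 0.15, FDR = 8.59e-13) and 5.41-fold with BMP/FGF (−2.44 ± 0.14, FDR = 1.87e-11), and was the only Eph receptor called higher in BMP/FGF than in BMP (0.88 ± 0.18, FDR = 0.000748), a call that was lost in ANS4 alone (0.37, FDR = 0.131, against 1.40, FDR = 8.85e-05 in BL6). Ephb2 had the most RNA per kb among Eph receptors and was nearly level, with 219, 232, 203 and 203 CPM in EGF/FGF, 244, 263, 224 and 234 in BMP and 212, 206, 224 and 220.3 in BMP/FGF. Its libraries overlapped in each comparison, and its rise of 0.15 ± 0.07 with BMP (FDR = 0.0428) lost its call in 11 of 22 alternatives.

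Of the 6 tested class 3 semaphorins, which are secreted, 4 rose and 2 fell with BMP. Sema3b measured 3.41, 3.701, 2.45 and 2.76 CPM in EGF/FGF, 22.1, 25.8, 21.3 and 22.9 in BMP and 25.7, 25.7, 29.3 and 26.3 in BMP/FGF. All quiescent libraries lay above the EGF/FGF ones, by 7.36-fold with BMP (2.88 ± 0.12, FDR = 2.75e-13) and 8.85-fold with BMP/FGF (3.15 ± 0.12, FDR = 7.72e-14). Its excess in BMP/FGF over BMP (0.26 ± 0.10, FDR = 0.0341) was within overlapping libraries and lost its call in 9 of 22 alternatives. Sema3e, which binds plexin D1 without a neuropilin, measured 43.5, 42.3, 55.7 and 55.7 CPM in EGF/FGF, 83.2, 84.01, 99.03 and 85.1 in BMP and 30.3, 32.3, 43.4 and 44.9 in BMP/FGF. BMP was highest in every library, 1.78-fold above EGF/FGF (0.83 ± 0.08, FDR = 2.46e-08) and 2.28-fold above BMP/FGF (−1.19 ± 0.08, FDR = 6.90e-09), while BMP/FGF and EGF/FGF overlapped across lines, with BMP/FGF the lower in each (−0.36 ± 0.08, FDR = 0.000555).

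Sema3d was low, with 0.155, 0.308, 0.261 and 0.104 CPM in EGF/FGF, 1.32, 1.77, 2.35 and 1.77 in BMP and 0.963, 1.12, 1.19 and 1.25 in BMP/FGF. Over 4 libraries these were 16 counts in EGF/FGF, 133 in BMP and 84 in BMP/FGF, a ratio of 8.71 with BMP (95% counting interval 5.17 to 15.7, exact) and of 5.46 with BMP/FGF (3.18 to 9.99). Both rises passed (3.05 ± 0.31, FDR = 5.28e-08 and 2.44 ± 0.33, FDR = 2.77e-06), and the difference between the quiescent states (−0.62 ± 0.23, FDR = 0.0366) lost its call in 11 of 22 alternatives. Sema3a, the repulsive cue after which the class is best known, fell from 40.9 to 49.8 CPM in EGF/FGF to 14.6 to 17.99 in BMP (−1.42 ± 0.10, FDR = 2.604e-10) and lay at 16.5 to 20.9 in BMP/FGF. Of the neuropilins, their co-receptors, Nrp1 measured 46.8, 48.3, 51.5 and 53.1 CPM in EGF/FGF, 44.1, 43.4, 38.4 and 36.5 in BMP and 39.1, 41.9, 43.98 and 41.5 in BMP/FGF. Every quiescent library lay below every EGF/FGF library, by −0.31 with BMP (FDR = 0.00146) and −0.24 with BMP/FGF (FDR = 0.0115) on the log2 scale, and the quiescent states overlapped. The change with BMP did not pass in ANS4 alone (−0.12, FDR = 0.138, against −0.53, FDR = 6.59e-05 in BL6). Nrp2 measured 8.74, 8.38, 11.7 and 10.5 CPM in EGF/FGF, 11.7, 11.4, 10.5 and 8.33 in BMP and 8.296, 8.299, 5.43 and 7.25 in BMP/FGF. Every BMP/FGF library lay below all others (−0.41 ± 0.15, FDR = 0.0186 against EGF/FGF and −0.48 ± 0.15, FDR = 0.0159 against BMP), although the former did not pass in ANS4 alone (−0.04, FDR = 0.776). With BMP it did not pass over both lines (0.07 ± 0.14, FDR = 0.667), with 0.43, FDR = 0.00305 in ANS4 and −0.29, FDR = 0.117 in BL6.

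Of the 12 tested membrane semaphorins (classes 4 to 7), all were called with BMP, 7 higher and 5 lower, where 79.6% of all genes tested passed. In BMP/FGF, 2 were higher and 6 lower than in BMP, where 41.4% of all genes passed. Sema4a, known from immune cells and retina, was at or near 0 in EGF/FGF, with 0.103 and 0 CPM in ANS4 and 0.209 and 0 in BL6, 6 counts in all. It measured 6.65, 7.97, 4.81 and 5.42 CPM in BMP and 4.44, 4.605, 3.48 and 4.47 in BMP/FGF, 456 and 315 counts. The ratios were 79.7 with BMP (95% counting interval 36.3 to 218) and 54.6 with BMP/FGF (24.8 to 150.0), and both passed the test (FDR = 2.23e-11 and 1.709e-10). Without BL6 EGF/FGF replicate 1 the log2 fold change moved from 6.18 to 7.28 with BMP and from 5.68 to 6.79 with BMP/FGF. Its lower level in BMP/FGF than in BMP (−0.49 ± 0.18, FDR = 0.03700) lost its call in 10 of 22 alternatives.

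Sema4g measured 14.8, 15.3, 13.7 and 15.3 CPM in EGF/FGF, 72.9, 72.9, 73.7 and 87.5 in BMP and 57.7, 59.3, 56.04 and 58.3 in BMP/FGF. The conditions did not overlap, BMP being 5.12-fold (2.36 ± 0.07, FDR = 5.80e-15) and BMP/FGF 3.98-fold (1.99 ± 0.07, FDR = 4.72e-14) above EGF/FGF, with BMP/FGF below BMP (−0.36 ± 0.07, FDR = 0.000281). Sema6c measured 5.69, 5.55, 4.23 and 5.27 CPM in EGF/FGF, 16.8, 17.8, 24.6 and 33.4 in BMP and 12.8, 15.5, 13.6 and 15.3 in BMP/FGF. It rose with BMP (2.11 ± 0.17, FDR = 1.67e-09) and BMP/FGF (1.48 ± 0.17, FDR = 3.13e-07) without overlap, and BMP lay above BMP/FGF in every library (−0.63 ± 0.15, FDR = 0.002699), though in ANS4 alone the difference did not pass (−0.29, FDR = 0.0551, against −0.93, FDR = 0.000263 in BL6). Sema6d, a ligand of plexin A1 and the membrane semaphorin with the most RNA per kb, measured 144, 136, 149 and 149.6 CPM in EGF/FGF, 259.7, 264, 285 and 288 in BMP and 148, 139, 167 and 162 in BMP/FGF. BMP stood above both other conditions (0.90 ± 0.06, FDR = 4.73e-11 against EGF/FGF and −0.79 ± 0.06, FDR = 9.09e-09 for BMP/FGF against BMP), which overlapped each other (0.12 ± 0.06, FDR = 0.0637). Sema7a, the GPI-anchored ligand of plexin C1, was lowest in BMP, at 9.03 to 12.2 CPM in EGF/FGF, 3.298 to 5.42 under BMP and 5.998 to 7.66 in BMP/FGF (−1.32 ± 0.15, FDR = 2.63e-07 with BMP and 0.72 ± 0.16, FDR = 0.00142 for BMP/FGF against BMP).

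The plexins, the receptors of the semaphorins, moved mostly one way in the comparisons that use the BMP libraries. Of 9 tested, 8 rose and none fell with BMP, where 40.8% of all genes rose. In BMP/FGF 7 were lower and none higher than in BMP, where 21.3% of all genes were lower. In BMP/FGF against EGF/FGF, 5 rose and 2 fell, where 40.9% of all genes rose and 38% fell. Plxna4, a receptor of class 3 and class 6 semaphorins, had the largest difference between the quiescent states among the members. It measured 1.65, 1.29, 1.57 and 1.62 CPM in EGF/FGF, 6.76, 6.64, 11.9 and 10.04 in BMP and 1.02, 1.45, 1.52 and 1.58 in BMP/FGF. The BMP libraries stood above all others, 5.59-fold above EGF/FGF (2.48 ± 0.16, FDR = 7.90e-11) and 6.05-fold above BMP/FGF (−2.60 ± 0.16, FDR = 2.35e-09), and BMP/FGF and EGF/FGF overlapped (−0.11 ± 0.20, FDR = 0.605).

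Plxnc1, Plxnb1 and Plxnb3 were high in both quiescent states. Plxnc1, the receptor of Sema7a, measured 8.64, 8.997, 7.202 and 7.51 CPM in EGF/FGF, 56.3, 59.99, 70.8 and 61.9 in BMP and 59.5, 56.7, 58.9 and 59.3 in BMP/FGF. It lay 7.58-fold (2.92 ± 0.09, FDR = 3.96e-15) and 7.37-fold (2.88 ± 0.09, FDR = 4.80e-15) above EGF/FGF, and the quiescent states overlapped (−0.04 ± 0.07, FDR = 0.687). Plxnb1, the receptor of Sema4d, measured 139.8, 150.4, 127 and 129 CPM in EGF/FGF, 535, 608, 456 and 517 in BMP and 374, 387, 400.3 and 399.7 in BMP/FGF. All conditions were apart, with log2 fold changes of 1.94 ± 0.08 with BMP (FDR = 2.34e-13), 1.55 ± 0.08 with BMP/FGF (FDR = 4.46e-12) and −0.39 ± 0.08 between them (FDR = 0.000648). Sema4d itself rose with BMP from 8.69 to 10.1 to 17.7 to 22.1 CPM (1.05 ± 0.10, FDR = 1.57e-08) and was at 12.7 to 15.04 in BMP/FGF.

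Plxnb3, a receptor of Sema5a, measured 3.103, 2.83, 2.51 and 2.503 CPM in EGF/FGF, 10.3, 12.1, 16.5 and 19.8 in BMP and 7.98, 8.35, 8.31 and 7.198 in BMP/FGF. It rose with BMP (2.38 ± 0.17, FDR = 3.143e-10) and with BMP/FGF (1.56 ± 0.17, FDR = 2.02e-07), and BMP/FGF lay below every BMP library (−0.82 ± 0.15, FDR = 0.000246). Plxnb2, which has the most RNA per kb of all members in each condition, measured 389, 429, 368 and 389.5 CPM in EGF/FGF, 489, 544, 536 and 572 in BMP and 374, 361, 410.1 and 407 in BMP/FGF. It was higher in all BMP libraries than in any other (0.42 ± 0.07, FDR = 2.04e-05 against EGF/FGF and −0.42 ± 0.07, FDR = 0.000116 for BMP/FGF against BMP), and BMP/FGF and EGF/FGF overlapped (log2 difference 0.00 ± 0.07, FDR = 0.974). Plxna2 and Plxna3 also rose with BMP (0.52 ± 0.12 and 0.92 ± 0.07, FDR = 0.000599 and 9.584e-10) and were lower in BMP/FGF (−0.88 ± 0.12 and −0.24 ± 0.07, FDR = 1.78e-05 and 0.00941), the latter not passing in ANS4 alone (−0.09, FDR = 0.333). Plxnd1, the receptor of Sema3e, rose by 0.17 ± 0.07 (FDR = 0.0281), with 0.12, FDR = 0.157 in BL6 alone. Plxna1 did not pass with BMP over both lines (−0.13 ± 0.06, FDR = 0.0566), with −0.19, FDR = 0.00579 in ANS4 and −0.08, FDR = 0.340 in BL6. Every BMP/FGF library of Plxna1 and Plxna2 lay below every EGF/FGF library.

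**Figure D2:**
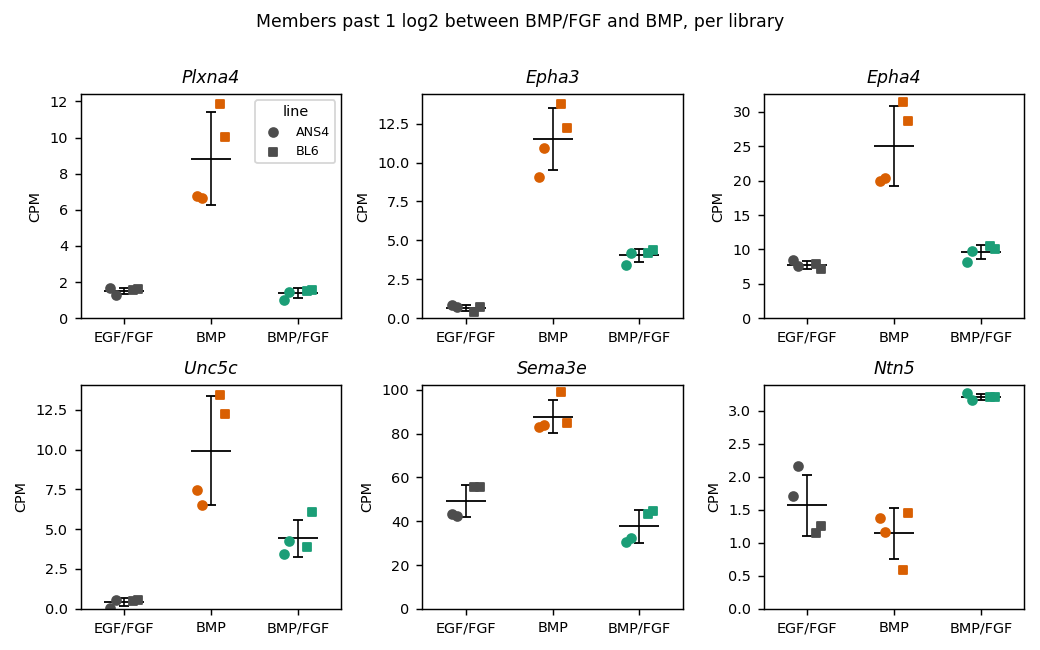
CPM in each of the 12 libraries for the 6 members that differed by more than 1 on the log2 scale between BMP/FGF and BMP, with a linear axis from 0 in each panel. Circles are ANS4, squares BL6, and lines give the mean ± SD of 4 libraries. Plxna4, Epha4 and Sema3e are highest in BMP and lie near or below their EGF/FGF level in BMP/FGF, Epha3 and Unc5c keep an intermediate level in BMP/FGF, and Ntn5 is highest in BMP/FGF.

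In the Slit and Robo pair, both tested receptors rose and the tested ligand fell. Robo2 measured 69.4, 70.3, 58.98 and 59.96 CPM in EGF/FGF, 143, 131, 145 and 119.8 in BMP and 139.6, 144, 144 and 137 in BMP/FGF. All quiescent libraries lay above the EGF/FGF ones, 2.06-fold with BMP (1.04 ± 0.07, FDR = 2.111e-10) and 2.23-fold with BMP/FGF (1.16 ± 0.07, FDR = 5.57e-11), with overlap between the quiescent states. Robo1 rose from 11.3 to 14.1 to 23.4 to 27.95 CPM with BMP (0.96 ± 0.09, FDR = 2.84e-08) and lay at 26.1 to 31.98 in BMP/FGF. Slit1, the ligand, was low, with 3.21, 2.62, 3.91 and 3.86 CPM in EGF/FGF, 2.31, 1.605, 1.66 and 2.69 in BMP and 1.61, 1.82, 1.52 and 1.69 in BMP/FGF. It fell with BMP (−0.73 ± 0.19, FDR = 0.00166), where 1 BL6 library reached into the range of EGF/FGF and ANS4 alone did not pass (−0.57, FDR = 0.0518), and with BMP/FGF without overlap (−0.998 ± 0.19, FDR = 0.000136).

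Among netrins, 2 of 4 rose and 1 fell with BMP, and 2 were higher and none lower in BMP/FGF than in BMP. Ntn1, the founding member of the family, measured 269, 275, 301 and 302 CPM in EGF/FGF, 72.7, 78.3, 78.3 and 75.03 in BMP and 108, 103, 101 and 107 in BMP/FGF. The conditions were apart in every library, with a 3.81-fold fall with BMP (−1.93 ± 0.06, FDR = 3.98e-15), a 2.68-fold fall with BMP/FGF (−1.42 ± 0.06, FDR = 1.51e-13) and a higher level in BMP/FGF than in BMP (0.51 ± 0.06, FDR = 2.12e-06). Ntn4, a laminin-binding netrin of basement membranes, measured 99.5, 101, 87.2 and 99.7 CPM in EGF/FGF, 111, 118, 139.5 and 167 in BMP and 129, 135, 153 and 158 in BMP/FGF. It rose in both states (0.43 ± 0.09, FDR = 0.000211 and 0.59 ± 0.09, FDR = 8.45e-06), and the states overlapped (0.15 ± 0.09, FDR = 0.176).

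Ntn5, a little-studied secreted netrin, measured 1.71, 2.16, 1.15 and 1.25 CPM in EGF/FGF, 1.37, 1.16, 0.588 and 1.45 in BMP and 3.27, 3.16, 3.204 and 3.22 in BMP/FGF. All 4 BMP/FGF libraries lay above all others, 2.90-fold above BMP (1.53 ± 0.23, FDR = 4.62e-05) and 2.10-fold above EGF/FGF (1.07 ± 0.22, FDR = 0.000206), and BMP and EGF/FGF overlapped (−0.46 ± 0.25, FDR = 0.10). The difference from BMP was 1.33 without BL6 BMP replicate 1 and 1.48 without either BL6 BMP/FGF library, below the threshold of 1.5 and still at FDR under 0.05. Ntn5 shares 519 exon bases with Sec1 on the opposite strand. Whether counting used strand is not given in the sources used here, and Sec1 had 1 to 6 counts per library.

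The netrin receptors went in opposite directions. Unc5b, known from blood vessels, measured 107, 113, 111 and 116 CPM in EGF/FGF, 22.1, 24.8, 19.5 and 24.7 in BMP and 31.5, 32.4, 31.5 and 33.9 in BMP/FGF. It fell 4.97-fold with BMP (−2.31 ± 0.08, FDR = 1.32e-14) and 3.40-fold with BMP/FGF (−1.76 ± 0.07, FDR = 2.87e-13), and was higher in BMP/FGF than in BMP (0.55 ± 0.08, FDR = 2.93e-05), with no overlap in any comparison. Unc5c, a receptor for repulsion from netrin, measured 0.0517, 0.566, 0.4697 and 0.574 CPM in EGF/FGF, 7.48, 6.53, 13.4 and 12.2 in BMP and 3.43, 4.28, 3.91 and 6.11 in BMP/FGF. Its EGF/FGF libraries held 32 counts in all, against 733 in BMP and 328 in BMP/FGF, a ratio of 24.01 with BMP (95% counting interval 16.9 to 35.4) and 10.7 with BMP/FGF (7.41 to 15.9). Both rises passed (4.52 ± 0.26, FDR = 2.73e-11 and 3.44 ± 0.29, FDR = 4.81e-09), and every BMP/FGF library lay below every BMP library (−1.08 ± 0.18, FDR = 0.000141). Unc5c shares 118 exon bases with the antisense gene Gm15688, and Plxna4 shares 110 with Plxna4os3. Dcc and Unc5a, both low, rose with BMP (0.85 ± 0.23, FDR = 0.002702 and 0.55 ± 0.20, FDR = 0.0169) and were lower in BMP/FGF (−0.86 ± 0.23, FDR = 0.00653 and −0.59 ± 0.20, FDR = 0.0251). None of these passed in ANS4 alone, where the changes with BMP were 0.11, FDR = 0.655 for Dcc and 0.29, FDR = 0.343 for Unc5a, against 1.52, FDR = 3.16e-05 and 0.75, FDR = 0.01395 in BL6. The Dcc libraries overlapped in each comparison.

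Per length of transcript, the level of a member ranged over several orders of magnitude, and the leading members shifted with condition. In EGF/FGF the highest mean CPM per kb were Plxnb2 at 60.6 (libraries 56.7 to 66.1), Ntn1 at 48.8 (45.9 to 51.4), Plxna1 at 27.8 (27.5 to 27.96) and Ntn4 at 26.5 (23.9 to 27.6). The ranges of Plxna1 and Ntn4 overlapped, and the others were apart. In BMP the order was Plxnb2 at 82.4 (75.3 to 88), Plxnb1 at 61.2 (52.8 to 70.3), Sema6d at 42.6 (40.3 to 44.7) and Ntn4 at 36.7 (30.5 to 45.7). There the ranges of Sema6d and Ntn4 overlapped. In BMP/FGF it was Plxnb2 at 59.7 (55.5 to 63.1), Plxnb1 at 45.1 (43.3 to 46.3), Ntn4 at 39.4 (35.4 to 43.3) and Sema6a at 25.7 (24.9 to 26.99), Plxnb1 and Ntn4 overlapping by little. Ntn1 thus went from rank 2 of 68 in EGF/FGF to rank 14 in BMP and 11 in BMP/FGF, and Plxnb1 from rank 12 to 2 in both.

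**Figure D3:**
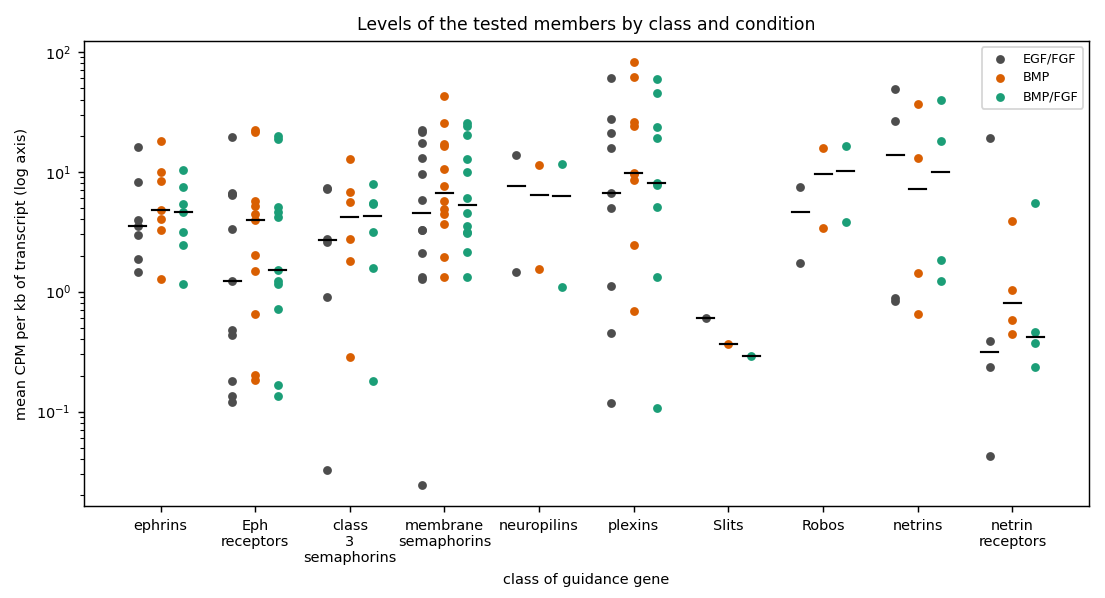
Mean CPM per kb of the longest protein-coding transcript (log axis) of the 58 tested members by class, with 1 point per gene and condition and a bar at the class median. A plexin, Plxnb2, is highest in each condition and reaches 82.4 in BMP, while Slit1 lies below 1 throughout.

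Partners and effectors of these pathways outside the families were taken from a list of 64 genes, 60 of them tested. With BMP 35 rose and 15 fell (median 0.44), with BMP/FGF 27 rose and 18 fell against EGF/FGF (median 0.10), and 6 were higher and 31 lower in BMP/FGF than in BMP (median −0.22), beside the shares of all genes given above. Draxin, a secreted ligand of Dcc, lay at 10.7 to 14.8 CPM in EGF/FGF, 121 to 139 under BMP and 52.5 to 68.7 in BMP/FGF (3.31 ± 0.07, FDR = 1.19e-16 with BMP and −1.07 ± 0.06, FDR = 1.65e-09 for BMP/FGF against BMP). Flrt1 and Flrt2, adhesion proteins that bind Unc5 receptors, were also highest in BMP. Flrt1 lay at 1.34 to 1.46, 9.03 to 11.9 and 4.01 to 5.65 CPM (2.82 ± 0.15, FDR = 6.82e-12 and −1.02 ± 0.13, FDR = 5.80e-06), and Flrt2 at 25.6 to 30.7, 56.1 to 78.7 and 28.8 to 32.4 CPM (−1.03 ± 0.08, FDR = 4.59e-08 for BMP/FGF against BMP), with overlap between BMP/FGF and EGF/FGF (0.16 ± 0.09, FDR = 0.0897).

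Vav3, an exchange factor for Rac, fell from 226 to 266 CPM in EGF/FGF to 48.1 to 68.1 in BMP (−2.09 ± 0.09, FDR = 3.22e-13), and Chn1, a Rac-inactivating chimaerin that acts below Epha4, from 217 to 268 to 83.4 to 91.9 (−1.47 ± 0.07, FDR = 1.59e-12). Ngef, the exchange factor ephexin bound to Epha4, was at 3.53 to 4.93 CPM in BMP and 8.19 to 9.37 in BMP/FGF (1.07 ± 0.13, FDR = 3.52e-06), and did not pass with BMP (0.06 ± 0.14, FDR = 0.697). Of the other genes named by rule, Nrcam, an adhesion molecule that partners neuropilins, was at 414 to 536 CPM in BMP and 643 to 763 in BMP/FGF (0.58 ± 0.09, FDR = 5.27e-05), and Cfl1, the actin-severing cofilin, at 1999 to 2205, 1091 to 1237 and 1341 to 1533 CPM in EGF/FGF, BMP and BMP/FGF (−0.83 ± 0.06, FDR = 1.29e-09 with BMP and 0.34 ± 0.06, FDR = 0.000443 for BMP/FGF against BMP).

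Wherever both lines passed alone they had the same direction. Fitted per line, 39 members were called in both ANS4 and BL6 for BMP against EGF/FGF, 31 higher and 8 lower. They were 44 for BMP/FGF against EGF/FGF (26 and 18) and 20 for BMP/FGF against BMP (5 and 15), with 0 in opposite directions. Of all genes tested, 76.7% were called in ANS4 alone and 75.2% in BL6 alone for BMP against EGF/FGF. These shares were 76% and 74.6% for BMP/FGF against EGF/FGF, and 36% and 40.6% for BMP/FGF against BMP. Genes called in both lines were not counted over all genes tested. The shared direction is therefore not shown to be particular to the members. The size of the changes differed. The change with BMP differed between lines for 13 members, more positive in BL6 for 10 and in ANS4 for 3, where 9.02% of all genes tested differed (5.39% and 3.63%). The change from BMP to BMP/FGF also differed for 13, with 7 more positive in BL6 and 6 in ANS4, where 13.5% of all genes did (6.67% and 6.86%), and scaled by library size only the split was 2 and 8. The median of this difference over all genes was 0.01 with the main scaling and −0.07 with library size only.

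Plxna2, which pairs with Sema6a, had the lowest FDR among the line differences in both comparisons. Its BMP level was 80.6 and 80.6 CPM in ANS4 and 140.5 and 129.6 in BL6, against 67.7 to 77.01 in EGF/FGF and 51.3 to 60.001 in BMP/FGF over both lines. The BL6 minus ANS4 difference was 0.62 ± 0.10, FDR = 0.0008004 in the change with BMP and −0.83 ± 0.10, FDR = 0.000115 in the change from BMP to BMP/FGF. Plxnb3 (0.91 ± 0.24, FDR = 0.0253 and −0.69 ± 0.19, FDR = 0.0213) and Sema6c (0.95 ± 0.23, FDR = 0.0173 and −0.64 ± 0.20, FDR = 0.03800) also differed in both, with higher BMP levels in BL6. Dcc measured 3.02 and 3.04 CPM in ANS4 and 5.93 and 6.499 in BL6 under BMP (1.43 ± 0.31, FDR = 0.00854). Both comparisons use the same BMP libraries. In those libraries the neuroblast and neuron markers summed to 1743 to 1857 CPM in ANS4 and 2797 to 2928 in BL6, and Dcx, which marks neuroblasts, lay at 169.9 to 173 and 390.0 to 409 CPM, while the oligodendrocyte lineage markers summed to 968 to 1004 in ANS4 and 1449 to 1641 in BL6 and the proliferation markers to 456 to 473 and 606 to 685. The part of these markers in the line differences was not tested. Outside BMP the neuroblast and neuron sums were 1037 to 1083 and 1072 to 1129 in EGF/FGF, and 1302 to 1304 and 1189 to 1208 in BMP/FGF.

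Both counts of line differences moved, up as well as down, when 1 library was left out. Each such fit leaves 1 library in a line and condition. The part of this in the shifts was not tested. The shares of all genes that differed in these fits are not given here. The shifts are therefore not shown to be particular to the members. Averaged over conditions, 7 members were higher in BL6 and 0 in ANS4, where 11.9% of all genes tested differed (5.83% higher and 6.09% lower). DESeq2 called 1 member lower, and at an unadjusted p under 0.05 edgeR had 19 in either direction. Sema3e had the largest of these (0.33 ± 0.05, FDR = 0.0001396), followed by Efnb2 (0.27 ± 0.05, FDR = 0.00137), Sema3c, Plxna2, Ntn4, Plxna3 and Sema6d, and the count was 12 without BL6 BMP replicate 1.

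**Figure D4:**
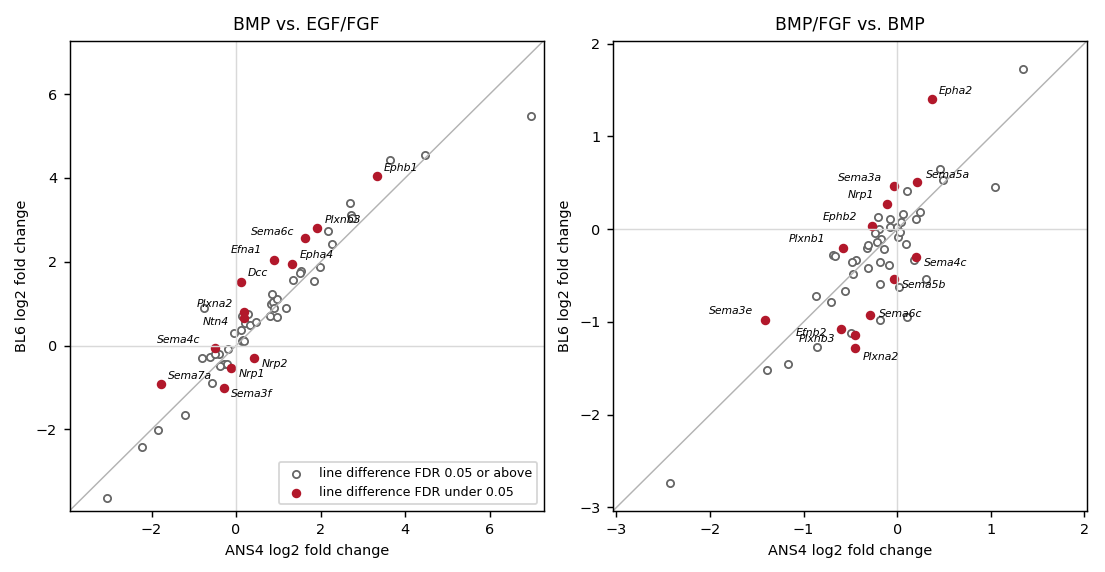
Log2 fold change in ANS4 (horizontal axes) and in BL6 (vertical axes), each line fitted alone, for the 58 tested members, with the line of equality drawn. Red points differ between lines at FDR under 0.05. On the left most named points lie above the line, with Nrp1, Nrp2 and Sema3f below, and on the right Plxna2, Plxnb3 and Sema6c lie below it and Epha2 above.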

How the data were processed

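Total RNA of 12 NSC libraries was sequenced with a low input protocol on BGISEQ-500RS. Per the labels, the authors used Trim Galore 0.5.0, kallisto 0.44.0 on mm10 and DESeq2 1.27.32. They deposited estimated counts per gene as whole numbers, and a second deposited table of log2 values made by the regularized logarithm (rlog), which was used here only as an alternative. Groups came from the sample labels.

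Of the genes, filterByExpr kept 13312 and left out 4053. After TMM normalization, edgeR 4.0.16 (R 4.3.3) fitted condition and line over all 12 libraries. Fold changes used edgeR's prior count of 0.125, and SE was derived from the F statistic. Line differences used 1 coefficient per line and condition. The edgeR, DESeq2 and limma fits of BMP/FGF against BMP, and the edgeR and DESeq2 fits of its line difference, were run on simulated data. There limma used log2 CPM rather than rlog values. The simulated data held far fewer changed genes than were called here, and the outcome is not given. Levels per kb divide CPM by the longest protein-coding transcript of GENCODE vM21 (GRCm38), which also gave positions. Kallisto shares reads among similar transcripts, so reads of overlapping genes may be divided between them. Intervals on counts are exact and cover counting error only.

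Library values are given for 29 members with a mean of at least 1 CPM that passed 1.5 on the log2 scale in any comparison or 1 between the quiescent states, or that had the highest CPM per kb of their class, where no minimum applied. From the list of partners, the 3 largest rises and 3 largest falls with BMP and between the quiescent states are named. Efna1, Efnb2, Dcc, Unc5a, Nrp2, Robo1, Sema3a, Sema4d, Sema6a, Sema7a and the remaining plexins were added after their values were seen. The members, lists and tests were chosen with earlier results of these data known. Alternatives were DESeq2 size factors, library size only, the DESeq2 1.42.0 Wald test, no filter, no line covariate, a replicate block, the 8 libraries compared alone, each line alone, limma-trend (limma 3.58.1) on rlog values and each library left out. Promoter sequences are from RefSeq (GRCm38.p6). A partner gene that the naming rule selected is not reported here.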

Additional observations from a re-analysis of the deposited data

Results flagged for a closer look

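The change with BMP differed between the lines for 13 members (BL6 change minus ANS4 change, log2, edgeR interaction test at FDR under 0.05; each line's own change from a fit of that line alone). It was more positive in BL6 for Dcc (1.43; 0.11 in ANS4 and 1.52 in BL6), Efna1 (1.14; 0.91 in ANS4 and 2.03 in BL6), Sema6c (0.95; 1.62 in ANS4 and 2.56 in BL6), Plxnb3 (0.91; 1.91 in ANS4 and 2.81 in BL6) and Sema7a (0.87; −1.78 in ANS4 and −0.92 in BL6). The same held for Ephb1 (0.73; 3.32 in ANS4 and 4.04 in BL6), Epha4 (0.64; 1.32 in ANS4 and 1.95 in BL6), Plxna2 (0.62; 0.19 in ANS4 and 0.79 in BL6), Ntn4 (0.48; 0.20 in ANS4 and 0.66 in BL6) and Sema4c (0.45; −0.50 in ANS4 and −0.06 in BL6). It was more negative in BL6 for Sema3f (−0.72; −0.28 in ANS4 and −1.02 in BL6), Nrp2 (−0.70; 0.43 in ANS4 and −0.29 in BL6) and Nrp1 (−0.40; −0.12 in ANS4 and −0.53 in BL6).

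The change from BMP to BMP/FGF differed between the lines for 13 members as well. It was more positive in BL6 for Epha2 (1.03; 0.37 in ANS4 and 1.40 in BL6), Sema3a (0.50; −0.03 in ANS4 and 0.47 in BL6), Sema3e (0.43; −1.41 in ANS4 and −0.98 in BL6), Nrp1 (0.38; −0.11 in ANS4 and 0.27 in BL6), Plxnb1 (0.38; −0.58 in ANS4 and −0.20 in BL6), Ephb2 (0.31; −0.27 in ANS4 and 0.04 in BL6) and Sema5a (0.30; 0.21 in ANS4 and 0.51 in BL6). It was more negative in BL6 for Plxna2 (−0.83; −0.45 in ANS4 and −1.28 in BL6), Plxnb3 (−0.69; −0.45 in ANS4 and −1.14 in BL6), Sema6c (−0.64; −0.29 in ANS4 and −0.93 in BL6), Sema4c (−0.51; 0.20 in ANS4 and −0.30 in BL6), Sema5b (−0.51; −0.03 in ANS4 and −0.54 in BL6) and Efnb2 (−0.48; −0.60 in ANS4 and −1.08 in BL6).

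A single library stood apart from the other 3 of its condition by Dixon's criterion in 5 of 87 groups examined (5.75%). The criterion's 95% level lets about 1 group in 20 pass by chance if all values of a group share 1 distribution. Each group mixed ANS4 and BL6 libraries, so that level need not hold here. In all 5 groups the library that stood apart was from BL6, the same one for Efnb1 and Sema4g. Efnb1 was at 63.2 CPM in BL6 BMP replicate 2 against 56.8 to 57.7 in the others, and Sema4g in the same library at 87.5 against 72.9 to 73.7. Sema3e was at 99.0 CPM in BL6 BMP replicate 1 against 83.2 to 85.1. Ntn4 was at 87.2 CPM in BL6 EGF/FGF replicate 1 against 99.5 to 101, and Sema4a at 3.48 CPM in BL6 BMP/FGF replicate 1 against 4.44 to 4.605.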

How the results depend on the processing

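Of 1914 values of named members recomputed under the alternatives, 1816 kept their direction and side of FDR 0.05, 63 lost their call, 14 gained one and 21 changed sign, and all 264 values of the named partner genes kept direction and call. Line differences in the change with BMP numbered 6 by the DESeq2 Wald test. Members past 1.5 between the quiescent states numbered 1 in ANS4 alone and 1 by limma-trend on rlog values. Signs changed for BMP/FGF against EGF/FGF in Plxnb2 (−0.0146 with DESeq2 size factors, −0.024 with library size only, −0.0146 by the Wald test, −0.000338 without the filter, −0.0116 with the 8 libraries compared, −0.149 at FDR = 0.0465 in ANS4 alone, −0.0195 on rlog values, and −0.0410 to 0.0618 with 1 library left out, negative without any one of the 4 BL6 libraries compared), Ephb2 (−0.106 in ANS4 alone, −0.00201 to 0.0838 with 1 library left out, negative without BL6 BMP/FGF replicate 1) and Plxna4 (−0.218 to 0.0169 with 1 library left out, positive without ANS4 EGF/FGF replicate 1). For BMP/FGF against BMP they changed in Efnb3 (0.0227 in BL6 alone, −0.0668 to 0.0135 with 1 library left out, positive without ANS4 BMP replicate 1 or BMP/FGF replicate 2), Ephb2 (0.0384 in BL6 alone), Nrp1 (−0.107 in ANS4 alone) and Plxnc1 (0.00568 in ANS4 alone, −0.0797 to 0.0222 with 1 library left out, positive without BL6 BMP replicate 1). Apart from Plxnb2 in ANS4 alone, none of these was called. Leaving out 1 library gave 48 to 52 called members in BMP against EGF/FGF (34 to 37 higher, 13 to 17 lower, 19 to 21 past 1.5), 46 to 48 in BMP/FGF against EGF/FGF (27 to 28 higher, 18 to 20 lower, 12 to 17 past 1.5) and 24 to 33 between the quiescent states (6 to 8 higher, 18 to 25 lower, 1 to 3 past 1.5). It gave 3 to 17 line differences in either comparison, 5 to 12 differences between lines, and 47 to 50, 45 to 48 and 32 to 38 partner genes. On rlog values, which are shrunk at low counts, the rises with BMP were 0.88 for Sema3d and 2.81 for Sema4a. Leaving out single libraries ended calls for Epha4 (BMP/FGF against EGF/FGF, 0.23 without BL6 EGF/FGF replicate 2, 0.29 without replicate 1 and 0.27 without ANS4 BMP/FGF replicate 2), Ephb2 with BMP (0.11 to 0.15 without either ANS4 BMP library, ANS4 EGF/FGF replicate 1 or either BL6 EGF/FGF library) and, for BMP/FGF against BMP, Ephb1 (−0.27 to −0.21 without any one of the 4 BMP libraries, either ANS4 BMP/FGF library, BL6 BMP/FGF replicate 1 or ANS4 EGF/FGF replicate 1), Sema3b (0.19 to 0.27 without ANS4 BMP replicate 1 or any one BL6 library of the 2 states), Sema3d (−0.66 to −0.50 without ANS4 BMP replicate 2, BL6 BMP replicate 1 or any one BMP/FGF library) and Sema4a (−0.51 to −0.39 without either ANS4 BMP or BMP/FGF library, BL6 BMP replicate 2 or BL6 BMP/FGF replicate 1). It brought calls to Efnb1 with BMP (0.16 and 0.17 without BL6 BMP or EGF/FGF replicate 1), Ntn5 with BMP (−0.66 without BL6 BMP replicate 2), Ntn4 between the quiescent states (0.24 without BL6 BMP replicate 2) and Sema6d in BMP/FGF against EGF/FGF (0.15 and 0.14 without ANS4 BMP/FGF replicate 2 or EGF/FGF replicate 1). The replicate block gave 50, 48 and 30 members in the order above and 11 and 12 line differences, with 50, 45 and 34 partner genes. The deviations of same-numbered libraries correlated at only −0.0711 to 0.0529 over all genes tested. No pairing by number was seen, but counting noise enters each deviation, so pairing is not excluded. The shares of all genes called under the same alternatives are not given beside these counts. No shift is therefore shown to be particular to the members. The cause of the shifts between alternatives was not tested. A member of few counts, such as Sema3d with 16 in EGF/FGF, has a wide interval.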
